A study of Homo sapiens with 8 samples.

Results

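The genes examined here are members of the BCL2 family and the receptors of the death ligand TRAIL. The set holds 10 genes: the BH3-only genes PMAIP1 (which encodes NOXA), BBC3 (PUMA), BCL2L11 (BIM), BID and BIK, the effector BAX, the anti-apoptotic genes MCL1 and BCL2L1 (BCL-XL), and the receptor genes TNFRSF10A (DR4) and TNFRSF10B (DR5). Every probe set that the platform annotation ties to one of these genes alone was taken. A probe set is a group of short probes that reads one stretch of a transcript. In all, 9 of the 10 genes had such a probe set, 32 probe sets together, out of 41091 that were tied to a single gene of 19775 genes. BBC3 has 1 probe set, which is shared with the microRNA genes MIR3190 and MIR3191, so no value is given for it.

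The cells were A549, an established line of human lung adenocarcinoma. They were transfected with DharmaFECT 1 and a control small interfering RNA (siRNA, sictrl in the labels) or one against SRC-1 (siSRC1), the nuclear receptor coactivator encoded by NCOA1. All cells were then kept for 36 h with 10% dialyzed fetal calf serum (serum freed of small molecules) and afterwards received DMEM that held or lacked glucose, with the same serum. Crossing the 2 siRNAs with the 2 media gave 4 groups, each with 2 arrays that the labels call biological replicates. The duration of the glucose step is not stated in the labels, and every group was transfected.

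Cells die by apoptosis along a pair of routes. In the mitochondrial route, BAX and its relative BAK1 open the outer mitochondrial membrane, anti-apoptotic proteins such as MCL1 and BCL-XL hold them back, and BH3-only proteins release or activate them when the cell is stressed. In the receptor route, TRAIL binds DR4 or DR5, which recruit the adaptor FADD and caspase-8, and cleavage of BID links this route to the mitochondria. NOXA binds MCL1 above all and promotes its degradation. Stress in the endoplasmic reticulum (ER), the compartment in which secreted proteins fold, is known to raise NOXA through ATF4 and DR5 through CHOP, the product of DDIT3, and BIM is known as a target of FOXO factors and of CHOP. mRNA levels do not show whether the cells died, and cell death was not analysed here.

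The promoter windows of the gene that rose most without glucose and of the gene whose brightest probe set fell are shown, since transcription factors of the stress response and of the FOXO family are known to act on such regions. Both are the 250 bases before the annotated start, 5′ to 3′, from the RefSeq table for GRCh38.p14. The PMAIP1 window lies at chr18:59899746-59899995 on the plus strand and the BCL2L11 window at chr2:111120664-111120913 on the plus strand.
PMAIP1: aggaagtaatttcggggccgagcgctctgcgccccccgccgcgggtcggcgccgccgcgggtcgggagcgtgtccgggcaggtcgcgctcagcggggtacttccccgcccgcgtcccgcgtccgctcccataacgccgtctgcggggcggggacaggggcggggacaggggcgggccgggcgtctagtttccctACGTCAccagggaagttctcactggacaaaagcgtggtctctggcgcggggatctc
BCL2L11: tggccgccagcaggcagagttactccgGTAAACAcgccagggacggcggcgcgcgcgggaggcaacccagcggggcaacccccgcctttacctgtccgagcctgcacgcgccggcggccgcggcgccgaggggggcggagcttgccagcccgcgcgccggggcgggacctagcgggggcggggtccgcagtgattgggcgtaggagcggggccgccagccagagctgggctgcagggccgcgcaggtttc
The capitals in PMAIP1 mark ACGTCA, which is TGACGT, the core of the cyclic AMP response element bound by ATF family proteins, on the other strand, at positions -56 to -51 from the start. This motif was added to the search after the sequence had been read, and 7.1% of the 35116 windows of this length hold it. The capitals in BCL2L11 mark GTAAACA, the core bound by FOXO factors, at positions -223 to -217, which 2.98% of windows hold. No window of MCL1, BIK, TNFRSF10A or TNFRSF10B was searched. The search therefore says nothing about these genes, among them TNFRSF10B, whose product DR5 is named above as raised through CHOP. Windows of the other 6 of the 10 genes (BAX, BBC3, BCL2L1, BCL2L11, BID and PMAIP1) were searched on both strands, 11 in all. None of them held TGATGNAAN (3.13% of all windows), at which ATF4 binds with a C/EBP protein, TGCAAT (7.03%), at which CHOP binds with one, the p53 half-site (5.57%) or the ER stress element (0.074%). A match is a run of letters and not a measured binding site, and binding was not measured in these samples.

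The arrays agreed closely within groups, with a correlation of log2 signals between 0.997 and 0.998. NCOA1, the target of the siRNA, read 8.34, 8.24, 8.60 and 8.42 on the arrays with control siRNA and 5.22, 5.09, 5.47 and 5.18 on those with SRC-1 siRNA, so that all 4 knockdown arrays lay below all 4 controls. The epithelial keratins KRT8 and KRT18 and AKR1B10 and AKR1C1, enzymes abundant in this line, lay above the 99th percentile of probe sets. The lowest of the 7 epithelial markers lay at the 78.5th. Markers of other cell types were lower but not all dim: 1 of 2 measured blood cell markers, 2 of 3 of endothelium and 3 of 4 of fibroblasts passed the filter described next, at percentiles up to 50.6, 54.8 and 76.6, and PTPRC of blood cells lay at the 10.4th. Both alveolar type 2 markers passed, and the part of these levels in the results was not tested. After a filter on dim probe sets (a mean below a log2 signal of 4.80), 28 of the 32 probe sets and 9 of the 10 genes entered the tests. The 4 left out were 2 of BCL2L11 and 1 each of MCL1 and TNFRSF10B. Gene values are those of the brightest probe set, and differences are log2 signal without glucose minus log2 signal with glucose, so that a positive value means higher without glucose.

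Without glucose, 5 of the 9 measured members were higher and 1 was lower, with either siRNA. PMAIP1, the death receptor gene TNFRSF10B, BIK, BAX and MCL1 rose, and BCL2L11 fell on its brightest probe set. BCL2L1, BID and TNFRSF10A did not pass an adjusted p of 0.05 (limma, Benjamini-Hochberg adjustment over 13584 genes). Glucose moved much of the transcriptome: with control siRNA 21.6% of all tested genes were called higher and 23.6% lower, and with SRC-1 siRNA 20.0% and 24.6%. The median difference over the 9 members was 0.29 with either siRNA, and over all tested genes it was -0.00088 and -0.0059. The arms with control and with SRC-1 siRNA share no array. In RNA from a whole culture, a change in each cell and a change in the share of cells that carry an mRNA cannot be told apart.

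**Figure D1:**
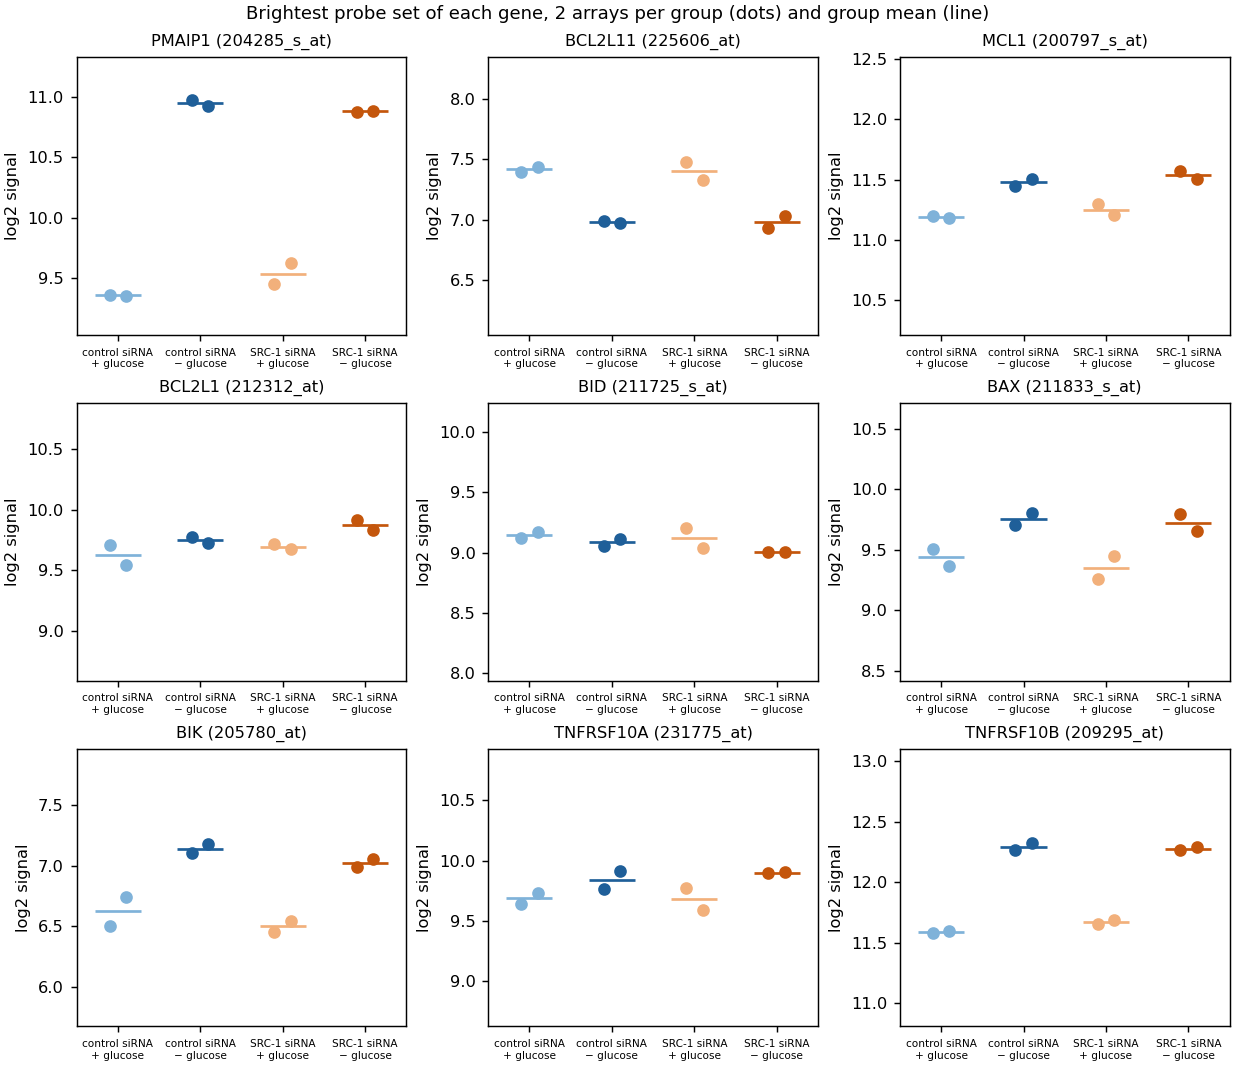
Log2 signal (y axis) of the brightest probe set of each of the 9 measured genes on the 8 arrays, by group (x axis); dots are single arrays, lines are means of 2, and every panel spans the same range of log2 units. PMAIP1 read 10.87 to 10.97 on the arrays without glucose and 9.35 to 9.62 on those with it, while BCL2L11 lay lower without glucose.

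The BH3-only genes went in different directions. PMAIP1 had the largest difference of the members. Its brightest probe set, 204285_s_at, read 10.97 and 10.92 without glucose and 9.36 and 9.35 with glucose under control siRNA, and 10.87 and 10.88 without and 9.45 and 9.62 with glucose under SRC-1 siRNA. All 4 arrays without glucose lay above all 4 with it, far beyond the spread within a group. The rise was 3.01-fold with control siRNA (a log2 difference of 1.59 ± 0.074, SE, n = 2 arrays a group, limma adjusted p = 2.50e-06) and 2.54-fold with SRC-1 siRNA (1.35 ± 0.074, adjusted p = 5.04e-06). Among the 13584 genes it held place 88 and place 125 from the top. The other PMAIP1 probe set, 204286_s_at, moved the same way, by 1.23 ± 0.11 and 1.14 ± 0.11, and both were called in both arms.

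BIK encodes a BH3-only protein that sits at the ER membrane. Its only probe set, 205780_at, read 7.10 and 7.18 without glucose and 6.50 and 6.74 with glucose under control siRNA, and 6.99 and 7.05 against 6.45 and 6.54 under SRC-1 siRNA. The arrays without glucose were again all above those with it. BIK rose by 0.52 ± 0.090 in both arms, a 1.43-fold and a 1.44-fold difference (adjusted p = 0.00175 and 0.00173).

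BCL2L11 encodes BIM, a strong activator of BAX and BAK1. Its brightest probe set, 225606_at, read 6.99 and 6.97 without glucose and 7.40 and 7.44 with glucose under control siRNA, and 6.93 and 7.03 against 7.48 and 7.33 under SRC-1 siRNA. All 4 arrays without glucose lay below the 4 with it. This probe set fell by 0.44 ± 0.074 with control siRNA (adjusted p = 0.00162) and by 0.42 ± 0.074 with SRC-1 siRNA (adjusted p = 0.00193). The other BCL2L11 probe sets did not follow. Averaged over the probe sets past the filter, BCL2L11 stood at 0.16 and 0.067 and was not called (limma adjusted p = 0.0626 and 0.413). Over the other alternatives apart from a 1.5-fold threshold the adjusted p ran from 0.000553 to 0.0127 and from 0.000665 to 0.0179. That mean includes 222343_at (0.51 and 0.29), whose passing of the filter leaned on its arrays without glucose. The sign of the mean therefore adds no support for a rise.

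BID, which caspase-8 cleaves, was not called on its brightest probe set. 211725_s_at read 9.06 and 9.12 without and 9.12 and 9.17 with glucose under control siRNA, and 9.01 and 9.01 against 9.21 and 9.04 under SRC-1 siRNA. Arrays of the different media overlapped across the siRNAs. The differences were -0.056 ± 0.075 and -0.12 ± 0.075 (95% intervals -0.23 to 0.11 and -0.29 to 0.054). Both other BID probe sets were called lower, as described with the single probe sets.

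BAX, the effector that perforates the mitochondrial membrane, was modestly higher without glucose. 211833_s_at read 9.70 and 9.80 without and 9.51 and 9.37 with glucose under control siRNA, and 9.79 and 9.66 against 9.26 and 9.45 under SRC-1 siRNA. The media did not overlap, but the SD within a group reached 0.13. BAX rose 1.24-fold with control siRNA (0.31 ± 0.092, adjusted p = 0.0227) and 1.29-fold with SRC-1 siRNA (0.37 ± 0.092, adjusted p = 0.0107). Leaving out replicate 2 without glucose or replicate 2 with glucose ended the call with control siRNA (adjusted p = 0.120 and 0.123), and leaving out replicate 1 without or replicate 1 with glucose ended it with SRC-1 siRNA (0.0750 and 0.0749). Over the alternatives apart from a 1.5-fold threshold the adjusted p ran from 0.00412 to 0.123 and from 0.00115 to 0.0750.

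Of the anti-apoptotic genes, MCL1 rose. Its brightest probe set, 200797_s_at, read 11.44 and 11.51 without and 11.20 and 11.18 with glucose under control siRNA, and 11.57 and 11.50 against 11.30 and 11.20 under SRC-1 siRNA. No array with glucose reached the lowest of those without. The rise was 1.22-fold in both arms (0.29 ± 0.068, adjusted p = 0.00885 and 0.00848). Leaving out 1 array (control siRNA without glucose, replicate 2) gave an adjusted p of 0.0571, and leaving out SRC-1 siRNA without glucose replicate 1 or with glucose replicate 2 gave 0.0597 and 0.0533. With _s_at and _x_at probe sets set aside, since such probe sets can match more than 1 transcript, MCL1 with control siRNA was not called (0.24, adjusted p = 0.166), and over the alternatives apart from a 1.5-fold threshold its adjusted p ran from 0.000332 to 0.166, and from 0.000304 to 0.0597 with SRC-1 siRNA.

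BCL2L1, which encodes BCL-XL, was not called. 212312_at read 9.77 and 9.73 without and 9.71 and 9.54 with glucose under control siRNA, and 9.91 and 9.84 against 9.72 and 9.68 under SRC-1 siRNA. The lowest array without glucose lay just above the highest with it. The differences were 0.12 ± 0.076 (95% interval -0.050 to 0.30, adjusted p = 0.225) and 0.18 ± 0.076 (0.0047 to 0.35, adjusted p = 0.0899).

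Of the TRAIL receptors, TNFRSF10B was called and TNFRSF10A was not. TNFRSF10B rose on every one of its 3 tested probe sets. The brightest, 209295_at, read 12.26 and 12.33 without and 11.58 and 11.59 with glucose under control siRNA, and 12.27 and 12.29 against 11.65 and 11.68 under SRC-1 siRNA. The SD within a group lay between 0.010 and 0.044, and the media were far apart. The rise was 1.63-fold with control siRNA (0.71 ± 0.062, adjusted p = 5.14e-05) and 1.52-fold with SRC-1 siRNA (0.61 ± 0.062, adjusted p = 0.000107). The mean over its tested probe sets gave 1.24 and 1.16, since the others moved further.

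TNFRSF10A did not pass on its brightest probe set. 231775_at read 9.77 and 9.92 without and 9.64 and 9.73 with glucose under control siRNA, and 9.90 and 9.90 against 9.78 and 9.59 under SRC-1 siRNA. Across the siRNAs the media overlapped, since 1 array with glucose (9.78) lay above the lowest without (9.77). The differences were 0.15 ± 0.086 (95% interval -0.044 to 0.35, adjusted p = 0.185) and 0.22 ± 0.086 (0.019 to 0.41, adjusted p = 0.0733). With SRC-1 siRNA the call depended on the processing: 5 of 19 alternatives passed, and the adjusted p ran from 0.0267 to 0.351. With control siRNA 1 of 19 passed, the mean of the probe sets (0.27, adjusted p = 0.0127), and the adjusted p ran from 0.0127 to 0.593.

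**Figure D2:**
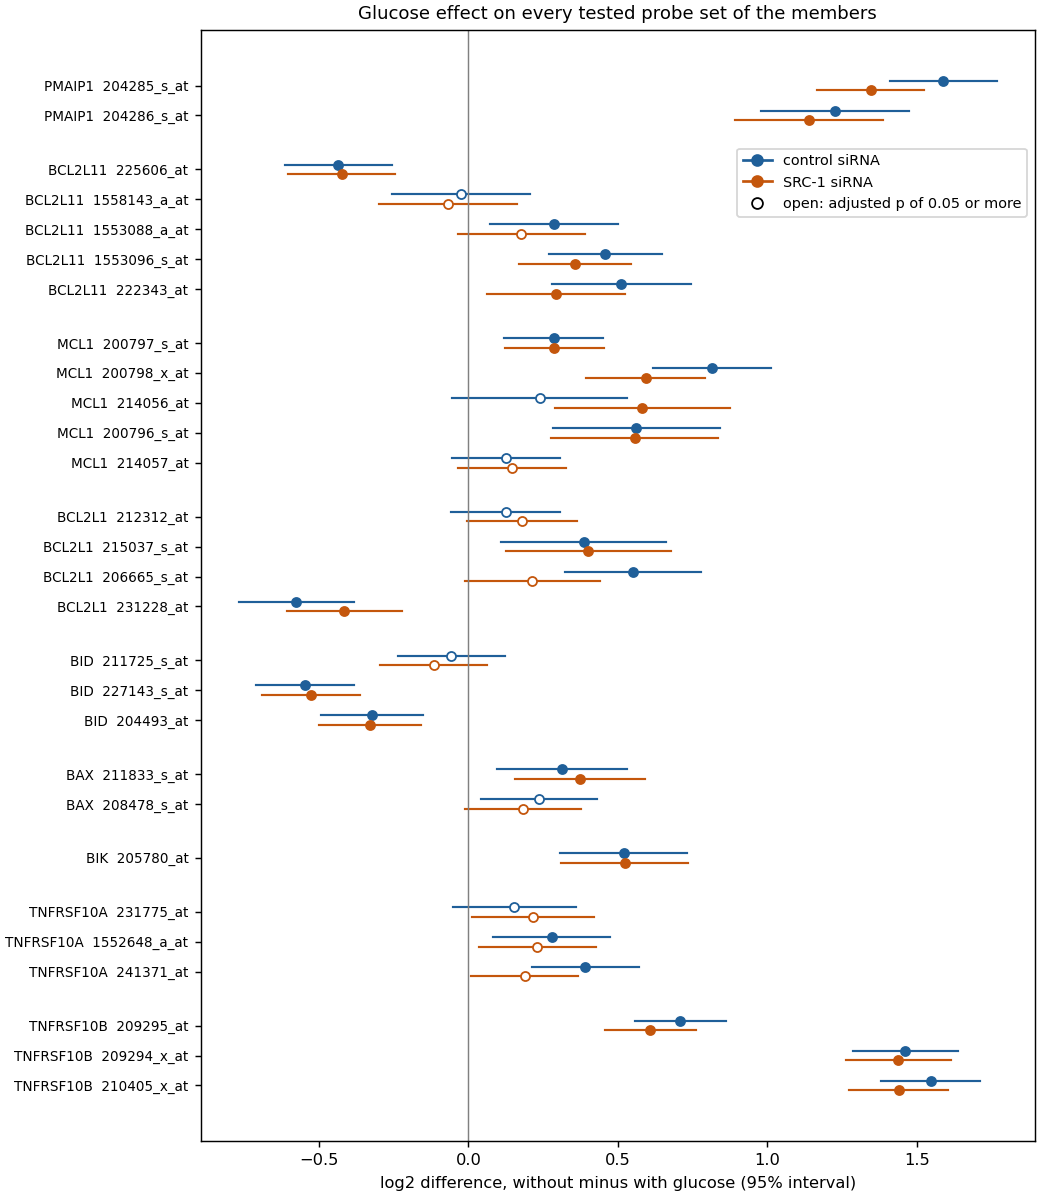
Difference in log2 signal, without minus with glucose (x axis), for the 28 tested probe sets (y axis), with control siRNA in blue and SRC-1 siRNA in orange; bars are 95% intervals and open points did not pass an adjusted p of 0.05 over 24655 probe sets. Probe sets of BCL2L11 and of BCL2L1 lie on both sides of 0, while those of PMAIP1 and TNFRSF10B all lie to the right.

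Single probe sets were then set side by side. Of the 28 tested, 17 were higher and 4 lower without glucose under control siRNA, and 14 were higher and 4 lower under SRC-1 siRNA (limma, adjusted over 24655 probe sets). The higher ones include 222343_at of BCL2L11, which passed the filter on the strength of its arrays without glucose. Over all probe sets tested, 20.9% were called higher and 21.9% lower with control siRNA, and 19.4% and 22.7% with SRC-1 siRNA. PMAIP1 and TNFRSF10B had all their tested probe sets called higher in both arms. BCL2L11 and BCL2L1 each had probe sets called in opposite directions. With no filter on dim probe sets, 4 calls with control siRNA were lost: 1553088_a_at of BCL2L11 (adjusted p = 0.0722), 215037_s_at of BCL2L1 (0.0549), 211833_s_at of BAX (0.0554) and 1552648_a_at of TNFRSF10A (0.0620). With SRC-1 siRNA 222343_at of BCL2L11 lost its call (0.0869).

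In BCL2L11, 225606_at was the only probe set called lower. 1553096_s_at read 6.53 and 6.56 without and 6.08 and 6.09 with glucose under control siRNA, and 6.44 and 6.59 against 6.09 and 6.23 under SRC-1 siRNA. It was called higher in both arms (0.46 ± 0.082 and 0.36 ± 0.082), as was 222343_at (0.51 ± 0.10 and 0.29 ± 0.10), a dim probe set between 4.40 and 5.17. The mean of 222343_at over all arrays, 4.84, lay just above the filter of 4.80. Its group means with control and SRC-1 siRNA were 4.98 and 5.10 without glucose and 4.47 and 4.81 with it. Its passing thus leaned on the groups in which it was higher, so its calls add no support for a rise. 1553088_a_at was called with control siRNA (0.29 ± 0.093, adjusted p = 0.0360) and not with SRC-1 siRNA (0.18 ± 0.093, adjusted p = 0.167), and 1558143_a_at in neither arm (-0.025 and -0.068). Of the 2 BCL2L11 probe sets below the filter, 208536_s_at read 3.18 to 3.79 and differed by 0.36 and 0.41 in a fit with no filter (adjusted p = 0.0599 and 0.0378), and 1555372_at differed by 0.013 and -0.085 (adjusted p = 0.946 and 0.630). Which BCL2L11 transcripts each probe set reads was not analysed here.

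BCL2L1 had a similar split. 231228_at read 5.89 and 6.07 without and 6.62 and 6.49 with glucose under control siRNA, and 6.11 and 6.06 against 6.50 and 6.51 under SRC-1 siRNA. It was called lower in both arms (-0.58 ± 0.084, adjusted p = 0.000759, and -0.42 ± 0.084, adjusted p = 0.00423). 215037_s_at was called higher in both (0.39 ± 0.12 and 0.40 ± 0.12), with control siRNA only under the filter, and 206665_s_at with control siRNA alone (0.55 ± 0.099, against 0.21 ± 0.099 with SRC-1 siRNA). The difference between the arms was not called for any of the 28 probe sets.

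The further probe sets of BID both fell. 227143_s_at read 8.56 and 8.55 without and 9.07 and 9.14 with glucose under control siRNA, and 8.46 and 8.52 against 8.97 and 9.06 under SRC-1 siRNA. It fell by 0.55 ± 0.072 and 0.53 ± 0.072 (adjusted p = 0.000432 and 0.000536). 204493_at fell by 0.32 ± 0.075 and 0.33 ± 0.075. So BID was lower on 2 of its 3 probe sets, in both arms, but not on the brightest, and it was called lower as a gene when its probe sets were averaged (-0.31 and -0.32, adjusted p = 0.00254 and 0.00201, the lowest over its alternatives, which reached 0.866 and 0.789).

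The x_at probe sets of TNFRSF10B showed larger rises than the brightest one. 209294_x_at read 8.76 and 8.74 without and 7.20 and 7.38 with glucose under control siRNA, and 8.75 and 8.76 against 7.30 and 7.33 under SRC-1 siRNA. It rose by 1.46 ± 0.077 and 1.44 ± 0.077, and 210405_x_at rose by 1.55 ± 0.072 and 1.44 ± 0.072. The adjusted p of these 4 values lay between 3.01e-06 and 5.27e-06. For TNFRSF10A, 1552648_a_at (0.28 ± 0.086) and 241371_at (0.39 ± 0.078) were called higher with control siRNA, and with SRC-1 siRNA none of its 3 probe sets was called (0.19 to 0.23).

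MCL1 was called higher on 3 of 5 tested probe sets with control siRNA and on 4 of 5 with SRC-1 siRNA. The bright 200798_x_at read 11.11 and 11.32 without and 10.39 and 10.41 with glucose under control siRNA, and 11.10 and 11.20 against 10.57 and 10.55 under SRC-1 siRNA. It rose by 0.81 ± 0.087 and 0.59 ± 0.087, more than the 0.29 of the brightest probe set. The second BAX probe set, 208478_s_at, had differences of the same sign as the first and was not called (0.24 ± 0.085, adjusted p = 0.0511, and 0.18 ± 0.085, adjusted p = 0.117). Below the filter, 227175_at of MCL1 (0.20 and -0.011) and 1556645_s_at of TNFRSF10B (-0.0012 and 0.14) were not called in the fit with no filter.

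The gap between probe sets of a gene was also followed array by array, a description added after the split calls had been seen and drawn from the same values. For each array the signal of the brightest probe set was subtracted from that of each further one, which gave 19 pairs. In 11 pairs the 4 arrays without glucose lay fully apart from the 4 with it. Over all genes with several tested probe sets this held for 39.0% of 11071 pairs, so unequal signals within a gene were common on these arrays. The 11 were all 4 pairs of BCL2L11 (a shift of the gap by 0.38 to 0.84), 200798_x_at of MCL1 (0.42), 215037_s_at and 231228_at of BCL2L1 (0.24 and -0.65), both pairs of BID (-0.24 and -0.45) and both of TNFRSF10B (0.79 and 0.83). In the pairs of PMAIP1, BAX and TNFRSF10A the media overlapped. Such a shift does not show which probe set follows the gene.

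SRC-1 knockdown moved none of the members past the threshold. With glucose, the differences between SRC-1 and control siRNA lay between -0.12 for BIK and 0.18 for PMAIP1, and the 95% intervals of the 9 genes reached from -0.33 to 0.35. Without glucose they lay between -0.12 for BIK and 0.13 for BCL2L1, with intervals from -0.33 to 0.30. Averaged over both media they lay between -0.12 and 0.099, with intervals from -0.27 to 0.22. Few genes at all were called: 0.00736% of those tested with glucose, 0.0221% without and 0.0294% on average, or 1, 3 and 4 of 13584 by limma, with 781, 434 and 674 at an unadjusted p below 0.05. Of the members, 1 had an unadjusted p below 0.05 with glucose and 0 in the others. Of the 28 probe sets 0 were called in any of these comparisons, where over all probe sets 0.0162%, 0.0243% and 0.0284% were, so that a count of 0 says little about the members.

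The interaction asks whether the glucose effect differs between the siRNAs. No member was called, and no gene of the 13584 was (0%, with 465 genes at an unadjusted p below 0.05). The estimates ran from -0.24 for PMAIP1 to 0.062 for TNFRSF10A, with 95% intervals from -0.48 to 0.36. PMAIP1 had the smallest p of the members. With glucose its signal was 9.36 ± 0.0040 (SD, n = 2) with control siRNA and 9.53 ± 0.12 with SRC-1 siRNA, a difference of 0.18 ± 0.074 (unadjusted p = 0.0431, adjusted p = 0.862, limma). Without glucose it was 10.94 ± 0.036 and 10.88 ± 0.0068. Its rise was thus smaller by 0.24 ± 0.10 with SRC-1 siRNA (95% interval -0.48 to -0.0022, unadjusted p = 0.0484, adjusted p = 0.999), which did not pass.

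**Figure D3:**
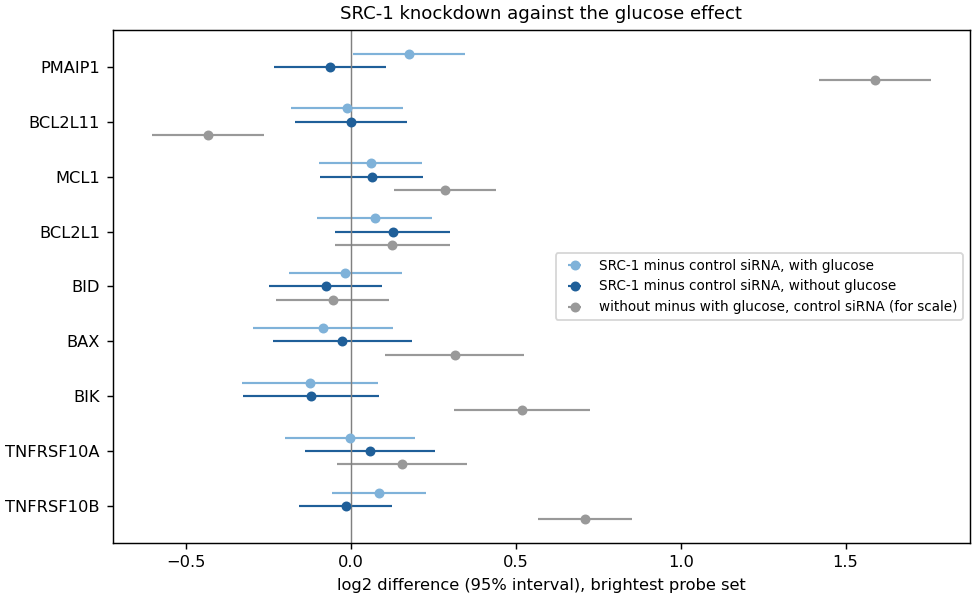
Log2 difference between SRC-1 and control siRNA with glucose (light blue) and without (dark blue) for the 9 measured genes, with the glucose effect under control siRNA in grey for scale; bars are 95% intervals. The knockdown differences lie between -0.12 and 0.18, while the glucose effect on PMAIP1 is 1.59.

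The genes whose pattern over the 8 arrays was most like that of the members with the largest rise and the largest fall were found by the root mean square difference of log2 signals after each gene was centred on its own mean. Nearest to PMAIP1 were ZFAS1 (0.065), SARS1 (0.071), TSC22D3 (0.073), SESN2 (0.078) and GOT1 (0.080). Nearest to 225606_at of BCL2L11 were GTF3C4 (0.024), PPM1D (0.028), KPNA3 (0.031), TSEN54 (0.032) and HECTD2 (0.032). The first 5 genes were 1.35 to 1.46 higher without glucose on average over the siRNAs, where PMAIP1 was 1.47 higher. The second 5 differed by -0.43 to -0.39, where BCL2L11 differed by -0.43. All were picked for closeness over these same arrays, so near-equal differences follow from the choice and are no separate result.

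The rest of the pathway was read from lists of the other family members and partners. Counts in each list are to be set beside the shares over all tested genes. These were 21.6% higher and 23.6% lower with control siRNA, and 20.0% and 24.6% with SRC-1 siRNA. Of the 4 other anti-apoptotic genes, 2 were called higher and 0 lower in each arm (median 0.27 with control and 0.42 with SRC-1 siRNA). BCL2L2, which encodes BCL-W, rose by 0.34 ± 0.073 and 0.36 ± 0.073. BCL2A1 was called with control siRNA (0.52 ± 0.17) and not with SRC-1 siRNA (0.48 ± 0.17), and BCL2 itself with SRC-1 siRNA (0.56 ± 0.12) and not with control siRNA (0.21 ± 0.12). The interaction was called for neither, and BCL2L10 was not called (-0.10 in both arms).

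Of the 11 other family genes listed as pro-apoptotic, 3 rose and 3 fell with control siRNA and 2 rose and 3 fell with SRC-1 siRNA (median 0.018 and -0.058). These counts are near the shares over all tested genes. HRK, a BH3-only gene, rose by 0.91 ± 0.16 and 0.83 ± 0.16, and BCL2L13 by 0.42 ± 0.065 and 0.32 ± 0.065. The HRK probe set was dim (mean 5.53), and its others past the filter differed by less: 229552_at by 0.32 and 0.68 and 237187_at by 0.51 and 0.075. BNIP3, which is known from hypoxia and mitophagy, fell by 0.34 ± 0.066 and 0.41 ± 0.066. BCL2L12 also fell, by 0.33 and 0.34, as did BCL2L15, by 0.80 ± 0.12 and 0.48 ± 0.12. The BH3-only gene BMF rose with control siRNA (0.49 ± 0.10, adjusted p = 0.00432) and stood at 0.069 ± 0.10 with SRC-1 siRNA. That difference did not pass either (interaction -0.42 ± 0.14, adjusted p = 0.999). BAK1, the partner of BAX, stood at 0.042 and -0.077 and BAD at -0.059 and 0.00011, with no call.

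The list of the death receptor pathway holds ligands, receptors, decoys and signalling proteins, and 11 of its 15 genes were tested. Of these, 2 rose and 1 fell with control siRNA and 1 rose and 2 fell with SRC-1 siRNA (median 0.048 and -0.051). These counts are below the shares over all tested genes. CFLAR, which encodes FLIP, the inhibitor of caspase-8 at the receptor, rose by 0.63 ± 0.065 and 0.55 ± 0.065 (limma adjusted p = 0.000123 and 0.000240). Of its other 10 probe sets past the filter, 210563_x_at differed by 0.61 and 0.60 and 210564_x_at by 0.57 and 0.37. The dim 235427_at differed by -0.77 and -0.48, and 214486_x_at by -0.025 and 0.28. The rest were positive in both arms, between 0.042 and 0.34. TNFRSF1A, a receptor of TNF, fell by 0.37 ± 0.072 and 0.40 ± 0.072. CASP8 (0.048 and -0.059) and FAS (0.11 and 0.13) were not called. The adaptor FADD was called lower with SRC-1 siRNA (-0.28 ± 0.086) and not with control siRNA (-0.16 ± 0.086), and CASP10 higher with control siRNA (0.27 ± 0.090) and not with SRC-1 siRNA (0.11 ± 0.090). The decoy receptor gene TNFRSF10D stood at -0.35 ± 0.15 and -0.40 ± 0.15 with no call, and its other probe set, 210654_at, at 0.41 and 0.31. All 3 probe sets of TNFSF10, which encodes TRAIL itself, lay between 2.75 and 3.56 on every array, below the filter, and were not tested.

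Beyond the mitochondria, 15 of 18 genes of the apoptosome, the caspases and their inhibitors were tested. With control siRNA 2 rose and 6 fell, and with SRC-1 siRNA 1 rose and 5 fell (median -0.095 and -0.15). APAF1, the scaffold of the apoptosome, fell by 1.55 ± 0.14 and 1.44 ± 0.14 on its brightest probe set, while its other one past the filter, 211554_s_at, differed by -0.028 and -0.13. CASP2 fell by 1.06 ± 0.073 and 1.03 ± 0.073, and the executioner CASP6 by 0.72 ± 0.085 and 0.79 ± 0.085. HTRA2, a mitochondrial protease that antagonizes inhibitors of apoptosis, rose by 0.90 ± 0.084 and 0.74 ± 0.084 (0.32 and 0.27 on 211152_s_at). Of 10 genes listed under MCL1 turnover, 2 rose in each arm, and 1 and 2 fell. DET1, a subunit of a ubiquitin ligase, rose by 0.76 ± 0.10 and 0.63 ± 0.10 and the kinase MAPK8 by 0.40 ± 0.078 and 0.37 ± 0.078. GSK3B, whose kinase marks MCL1 for degradation, fell by 0.42 ± 0.067 and 0.39 ± 0.067. Further probe sets were mixed for both kinases: 229664_at of MAPK8 differed by -0.51 and -0.49, and 209945_s_at of GSK3B by 0.0048 and -0.062. The rest of their probe sets past the filter went the way of the brightest, among them 226046_at of MAPK8 (0.76 and 0.58) and 226183_at of GSK3B (-1.13 and -0.91). The deubiquitinase USP13 was called lower with SRC-1 siRNA (-0.21 ± 0.065) and stood at -0.16 ± 0.065 with control siRNA.

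Of the 7 lists, that of stress factors known to act upstream of the members held the largest changes and the highest median. The lists were chosen with earlier results of these data known, so this ranking may follow from the choice. Of 14 genes, 10 rose and 2 fell in both arms, with medians of 0.94 and 0.90. Over all tested genes 21.6% were called higher and 23.6% lower with control siRNA, and 20.0% and 24.6% with SRC-1 siRNA. DDIT3 rose by 4.40 ± 0.086 and 4.36 ± 0.086, ATF3 by 3.67 ± 0.11 and 3.54 ± 0.11, ERN1, an ER stress sensor, by 2.38 ± 0.11 and 2.14 ± 0.11, TRIB3 by 1.63 ± 0.069 and 1.73 ± 0.069, and ATF4 by 0.90 ± 0.061 and 0.86 ± 0.061. Of the further ERN1 probe sets, 235745_at differed by 1.41 and 1.23 and the dim 207061_at by 0.060 and 0.075. ATF5 and E2F1 fell (-0.67 and -0.60 with control siRNA, though 230938_x_at of ATF5 differed by 0.11), and FOXO1 (-0.034 and 0.045) and FOXO3 (0.058 and 0.081) were not called. Of the list of p53 and its targets, 13 of 16 genes were tested. With control siRNA 3 rose, near the share over all tested genes, and 5 fell. With SRC-1 siRNA 5 rose and 5 fell. The medians were 0.076 with control siRNA and 0.0026 with SRC-1 siRNA. GADD45A, which ATF4 also controls, rose by 2.19 ± 0.074 and 2.12 ± 0.074 and CDKN1A by 0.35 ± 0.062 and 0.30 ± 0.062. SESN1 (-0.54 ± 0.079 and -0.35 ± 0.079), TP53INP1 (-0.55 ± 0.083 in both arms) and ZMAT3 (-0.54 ± 0.10 and -0.45 ± 0.10) fell. With knockdown, none of the tested genes of the 7 lists was called, in either medium or on average.

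**Figure D4:**
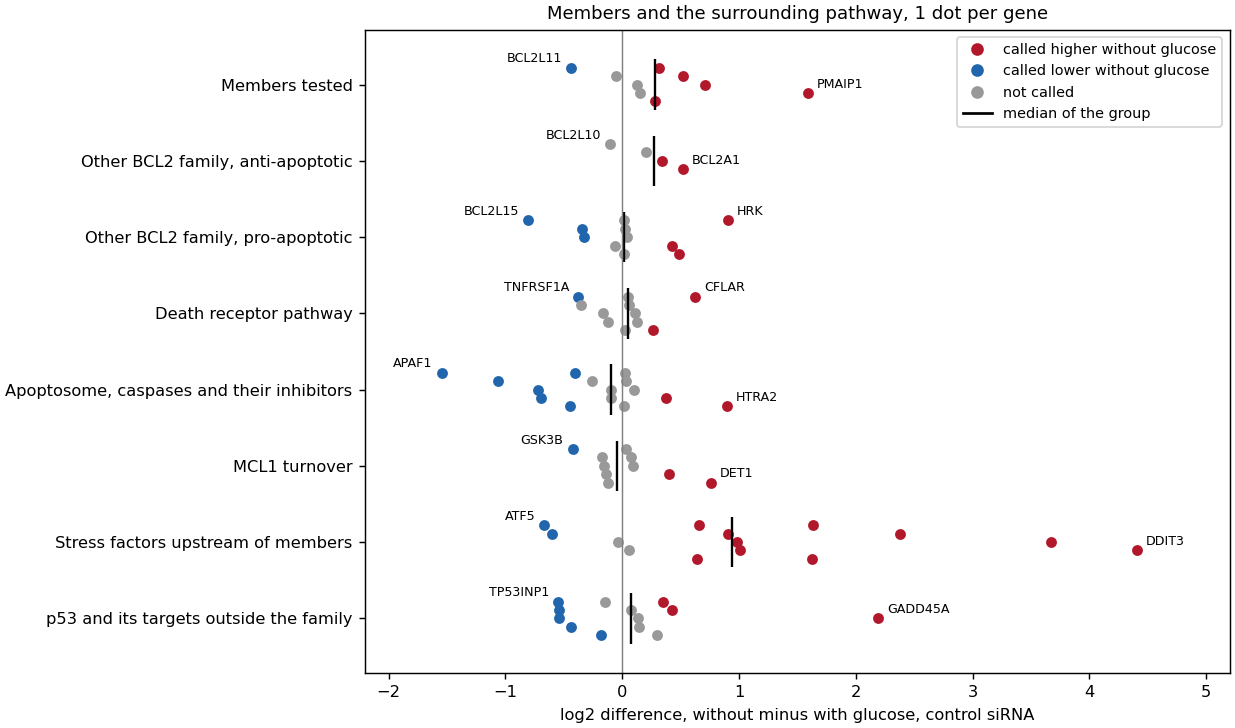
Log2 difference without minus with glucose under control siRNA (x axis) for the 9 measured genes and for the genes of 7 surrounding lists (y axis), 1 dot per gene; red and blue dots passed an adjusted p of 0.05 and black lines are medians. The stress factors have a median of 0.94 and reach 4.40 at DDIT3, while the other lists have medians between -0.095 and 0.27. The lists were chosen with earlier results of these data known.

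RNA quality was read from control probe sets at the 3' and the 5' end of GAPDH and ACTB, whose gap widens as RNA breaks down. Between arrays without and with glucose the gap differed by -0.027 for GAPDH (exact permutation test, 4 against 4 arrays, two-sided p = 0.0571) and by -0.093 for ACTB (p = 0.143). Its part in the differences between probe sets of a gene was not tested.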

How the data were processed

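RNA of 8 cultures (4 groups of 2) was read on Affymetrix arrays of 54675 probe sets. The deposited values, used as log2 signal per probe set, lie between 1.98 and 14.7; the base was inferred, since neighbouring hybridization spikes stood 1.81, 1.68 and 2.31 units apart. The authors' background correction, probe summary and normalization are not given in the sources used here, and normalization can shrink differences. No detection calls were used, so a dim probe set can understate a fold.

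The platform annotation gave the gene names: 41091 probe sets had 1 gene, 1801 several, 11721 none and 62 were controls; 41037 matched RefSeq by Entrez identifier. Probe sets with a mean below the 40th percentile (4.80) were left out, and the brightest per gene was kept. Listed genes that lack a sole probe set in it were not analysed here.

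A single model for all 8 arrays was fitted with limma 3.58.1 in R 4.3.3 (4 residual and 4.35 prior degrees of freedom), two-sided, with Benjamini-Hochberg adjustment over 13584 genes, or 24655 probe sets, at 0.05. A permutation of 2 arrays against 2 cannot go below p = 0.333. Nothing says how cultures were kept apart, so p-values reflect only how far these arrays differ, which may be technical, and their number limits precision. The fit was tested on simulated data.

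Members and lists were chosen with earlier results of these data known. The text names all members, a fixed set of partners (named where tested) and the 4 genes of each list with the smallest p in each glucose comparison; the other list genes named were chosen after their values were seen. Alternatives were 12 other settings and each array left out in turn.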

Additional observations from a re-analysis of the deposited data

How the results depend on the processing

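With either siRNA, 5 to 7 members were called higher without glucose and 1 lower, under quantile normalization, median centring, no filter, a stricter filter, the mean of probe sets, a trended prior, array weights, a fit restricted to the compared groups and a fit over all probe sets. The 7 came with SRC-1 siRNA and the trended prior, which added BCL2L1 and TNFRSF10A, and under the mean of probe sets the 1 lower gene was BID in place of BCL2L11. Tested against a fold of 1.5, 1 member was higher and 0 lower in each arm (PMAIP1; TNFRSF10B reached an adjusted p of 0.470 with control siRNA). Without probe sets named _s_at or _x_at, which leaves PMAIP1 and BAX with no value, 2 were higher with control siRNA, 3 with SRC-1 siRNA, and 2 lower in each. Leaving out single arrays gave 3 to 5 higher and 1 lower; 3 came without replicate 2 of control siRNA without glucose and without replicate 1 of SRC-1 siRNA without glucose, where MCL1 and BAX lost their calls. BCL2L11 reversed under the mean of its probe sets (0.16 and 0.067), a construction that mixes the opposed probe sets. That mean includes 222343_at, whose passing of the filter leaned on its arrays without glucose. Of 1050 member values, 1019 kept direction and call, 18 lost a call, 11 gained one and 2 reversed. Of 1652 counts of list genes, 1569 stayed within 1.5 times of the main count, 71 fell below that and 12 rose above it. Both totals include the knockdown and interaction comparisons, where no member and no gene of the lists was called in the main fit. Results there could hardly change, so the shares that stayed the same overstate how stable the glucose results are. Knockdown and interaction counts of members stayed at 0 under every alternative run. Same-numbered arrays did not deviate together (correlations -0.041 to 0.089). This shows no shared shift but cannot settle whether the samples were prepared in pairs, which the labels do not say. With a replicate block the members called were still 5 higher and 1 lower in each arm. Of the 28 probe sets, 222343_at of BCL2L11 then lost its call with SRC-1 siRNA (limma adjusted p = 0.0621). With no filter, 5 calls of single probe sets were lost, 4 with control and 1 with SRC-1 siRNA, at adjusted p values of 0.0549 to 0.0869. Dim probe sets, such as those of TNFSF10, give no usable fold.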
